A study of Caenorhabditis elegans with 27 samples.

Results

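P granules are germline condensates of RNA and protein that sit on the outer face of nuclear pores in *C. elegans* and that are passed to the germ cell precursors of the embryo. The siRNAs counted here are short RNAs antisense to coding sequence, most of which RNA-directed RNA polymerases make on mRNA templates and Argonaute proteins then bind. Poly(U) polymerases (PUPs) add uridine to RNA 3′ ends. Of 10 P granule genes chosen by their gene symbols in the WBcel235 annotation (*pgl-1*, *pgl-3*, *glh-1*, *glh-2*, *glh-3*, *glh-4*, *deps-1*, *meg-1*, *meg-2* and *meg-3*), 7 had an siRNA value and are described here, out of 10062 protein-coding genes with siRNA counts. The siRNAs of *pgl-1*, *glh-2* and *meg-3* are not analysed here. The siRNAs of *meg-2* were 3.18 to 4.25 times as abundant in the 4 strains that lack *pup-1* as in wild type. Those of its neighbour *meg-1* were 1.66 to 2.14 times as abundant in these 4 strains, where support for the lowest value, in *pup-1(0)*, depended on the settings used. The siRNAs of *glh-3* were 1.36 to 1.85 times as abundant in the same strains, where support in the double and triple mutants depended on the settings used. Those of *glh-1* were lower in *pup-1(0)* and the double mutant, and those of *pgl-3* in the double and triple mutants. Their ranges overlapped wild type, and their support depended on the libraries and settings used. Under the main settings, those of *deps-1* had no adjusted p under 0.05 against wild type in any of the 7 mutants.

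Libraries were made from whole hermaphrodites, as 1-day adults raised at 22 °C, with 3 libraries for each of 7 mutant strains and 6 for wild type (N2). The single mutants were *pup-1(tm1021)*, *pup-2(tm4344)*, *pup-3(tm5089)* and *pup-4(om141)*, each written with (0) in place of the allele, as in *pup-1(0)*. The double mutant was *pup-1/-2(om129)*, in which both genes are lost. The triple mutant added *pup-3(tm5089)* to it, and the quadruple mutant added *pup-3(tm5089)* and *pup-4(om141)*. According to the methods of the study, strains with *pup-1(tm1021)*, *pup-2(tm4344)* or *pup-1/-2(om129)* were kept over a GFP-marked balancer chromosome, and the animals sampled were F2 progeny lacking both maternal and zygotic gene product. The replicates are described as independent, and each p-value sets a difference between genotypes against the spread between these libraries. For uridylation, the methods set 3 wild-type against 3 mutant replicates that were run in parallel, and the labels do not say which wild-type replicates these were. All 6 wild-type libraries entered each comparison with wild type, and the spread was estimated over all 27 libraries together.

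Library totals ran from 972048 to 17562388 counts with a median of 6692414. Levels are given in counts per 1000000 counts (CPM) after scaling by edgeR's TMM factors. The floor used here, 3 counts, corresponded to 0.171 to 3.09 CPM of total counts, before that scaling. Such floors cover counting error only. Replicate 1 of wild type stood apart: its muscle miRNA *mir-1* was at 63250 CPM of total counts, against 3073 to 17470 in the other wild-type libraries, and its oocyte and embryo miRNAs *mir-35* to *mir-42* summed to the lowest wild-type value, 15920. Replicate 1 of the double mutant also stood apart, with 77.1% of its counts on protein-coding genes and 19.7% on miRNAs, against 50% to 51.1% and 46% to 47.4% in the other 2 libraries. Values of the double mutant are therefore given without it where they moved. The *mir-35* to *mir-42* sum ran from 13570 to 87930 in *pup-1(0)*, 18550 to 34300 in the double, 48450 to 60800 in the triple and 25630 to 37080 in the quadruple mutant. In wild type it ran from 15920 to 82660, at 54870 or more in replicates 2 to 5 and 27040 in replicate 6. The double and quadruple mutants thus overlapped wild type in this sum only through its replicates 1 and 6. The piRNA share of counts was 1.78% to 5.44% in *pup-1(0)* and 2.18% to 5.72% in wild type, and *lin-4*, a miRNA of the soma, was at 122.4 to 1028 CPM of total counts over the strains lacking *pup-1* and 246.4 to 737.8 in wild type. *mir-1* was at 1168 to 19750 over those strains. The ranges of these markers overlapped between the strains lacking *pup-1* and wild type, and their part in the results was not tested. The siRNAs of *pup-1* (annotated as *cid-1*) were at 1059 to 1171 CPM in *pup-1(0)* and 954 to 1559 CPM in wild type. Being antisense reads summed over the whole coding sequence, they do not check the deletion.

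Wild type gave the baseline for each gene, as CPM per kilobase of coding sequence so that genes of different length can be set side by side. The siRNAs of *deps-1*, which is required for P granule assembly, were the most abundant at 115.0 ± 27.2 CPM per kb (SD, n = 6). Those of *glh-4* followed at 87.2 ± 15.1, and then those of *pgl-3* at 57.9 ± 11.9, *glh-3* at 53.9 ± 9.30 and *glh-1* at 36.5 ± 9.81 CPM per kb (SD, n = 6 each). The siRNAs of the *meg* genes were scarcer, at 10.03 ± 2.69 for *meg-1* and 4.02 ± 1.00 CPM per kb for *meg-2* (SD, n = 6 each). The ranges of each pair of neighbours down to *glh-1* overlapped, whereas the range of *meg-1* (6.13 to 13.1 CPM per kb) lay below that of *glh-1* (26.8 to 52.4) and above that of *meg-2* (2.58 to 5.46). The median over all 7184 siRNAs tested was 22.1 CPM per kb, so that 5 genes lay above it and the *meg* genes below it. *deps-1* exceeded 86.6% of the tested siRNAs and *meg-2* exceeded 23.5% of them.

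**Figure D1:**
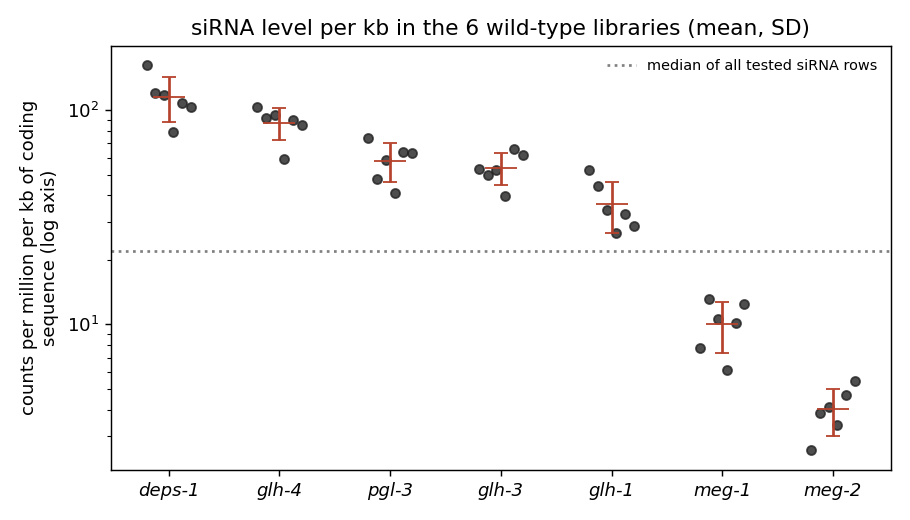
siRNA level of each P granule gene in the 6 wild-type libraries, in CPM per kilobase of coding sequence on a log axis, with points for libraries and bars for the mean and SD. *deps-1* stands highest at 115.0 and *meg-2* lowest at 4.02, and the dotted line marks the median of all tested siRNAs, 22.1.

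Each mutant was compared with wild type to ask which siRNAs differ when a given PUP is missing. A siRNA was called differentially abundant (DA) when edgeR's quasi-likelihood test gave a Benjamini-Hochberg adjusted p under 0.05 over all 9645 sRNAs tested and its absolute log2 fold change exceeded 1, and all 7 P granule genes passed the filter on low counts. In *pup-1(0)*, 1 of the 7 was DA, against 21.0% of all sRNAs tested. In the double mutant 2 of 7 were DA, against 21.1%, and in the triple mutant 2 of 7, against 17.6%. In the quadruple mutant 1 of 7 was DA, against 21.2%. At an unadjusted p under 0.05, by edgeR, 5 of 7 passed in *pup-1(0)* against 45.1% of all sRNAs, 5 in the double against 43.8%, 5 in the triple against 40.4% and 3 in the quadruple mutant against 44.1%. With 7 genes the DA counts are near the background shares, and all of the DA siRNAs were those of *meg-2* or *meg-1*, in the higher direction. These shares pool siRNAs with piRNAs and miRNAs. In a fit of siRNAs alone, 1, 2, 2 and 1 of the 7 were DA in the same order. Of all 7230 siRNAs in that fit, 1950, 1966, 1679 and 1980 were. Over all sRNAs, more were DA in the lower direction, with 718 higher and 1305 lower in *pup-1(0)*, and 801 higher and 1245 lower in the quadruple mutant. The median log2 fold change of the 7 was 0.42 in *pup-1(0)*, 0.13 in the double, 0.07 in the triple and 0.31 in the quadruple mutant, beside −0.26, −0.12, −0.20 and −0.13 over all sRNAs tested. Over the siRNAs among these it was −0.21, −0.12, −0.17 and −0.12. Because whole animals were sampled, a changed amount of germline tissue and a changed siRNA level per germ cell cannot be told apart.

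**Figure D2:**
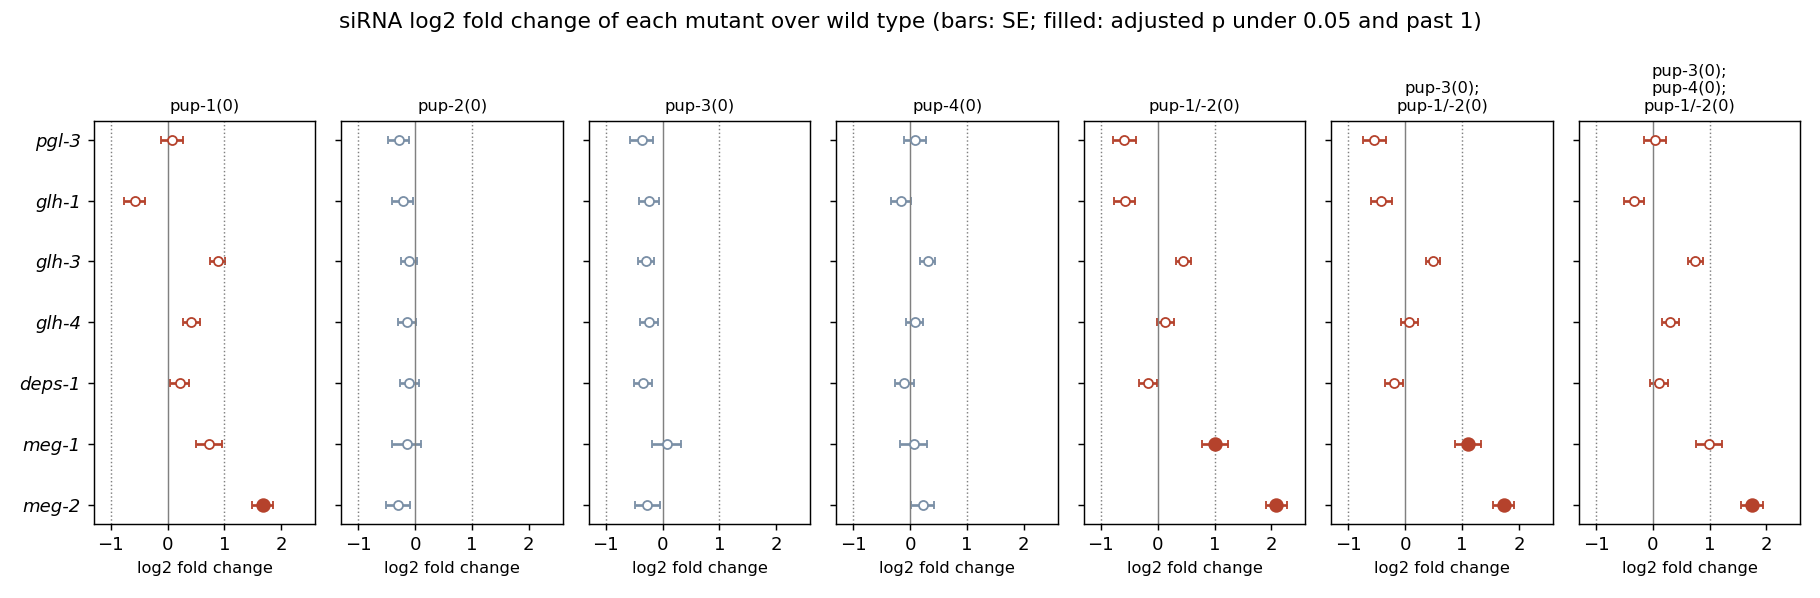
Log2 fold change of the siRNAs of the 7 P granule genes, with 1 panel for each mutant over wild type, bars giving the SE and filled points marking DA siRNAs. *meg-2* is DA in the 4 strains that lack *pup-1* and *meg-1* in the double and triple mutants, while every point in the single mutants that keep *pup-1* lies between −0.37 and 0.31.

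The MEG proteins are disordered proteins that act on P granules in the embryo, where *meg-1* and *meg-2* overlap in function. Both genes lie on the minus strand of chromosome X in WBcel235, *meg-2* (WBGene00010493) from 13922643 to 13926129 and *meg-1* (WBGene00010492) from 13927036 to 13929634, with 906 bp between them. The *meg-2* siRNAs were at 19.2, 37.7 and 38.6 CPM in the libraries of *pup-1(0)*, 45.5, 40.8 and 43.3 CPM in the double mutant, 27.5, 37.4 and 35.7 CPM in the triple mutant and 34.2, 37.3 and 30.9 CPM in the quadruple mutant. In wild type they ran from 6.35 to 13.4 CPM with a median of 9.81. Every library lacking *pup-1* thus lay above every wild-type library. The log2 fold change was 1.67 (SE 0.19, adjusted p = 2.7e-07) in *pup-1(0)* and 2.09 (SE 0.19, adjusted p = 2.04e-08) in the double mutant. It was 1.73 (SE 0.19, adjusted p = 2.95e-07) in the triple and 1.75 (SE 0.19, adjusted p = 1.43e-07) in the quadruple mutant. These levels rest on few reads in the shallow libraries, down to 31 counts in *pup-1(0)* and 9 counts in wild type. Under 12 other settings and in 9 fits that left out 1 library, the *meg-2* siRNAs stayed DA in all 4 strains, with log2 fold changes of 1.37 to 1.92 in *pup-1(0)*, 1.90 to 2.35 in the double, 1.55 to 1.93 in the triple and 1.49 to 1.97 in the quadruple mutant.

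The *meg-1* siRNAs were at 28.5, 37.1 and 30.0 CPM in *pup-1(0)*, 59.6, 31.9 and 24.8 CPM in the double mutant, 38.2, 44.1 and 41.2 CPM in the triple mutant and 34.4, 40.7 and 40.0 CPM in the quadruple mutant. In wild type they ran from 11.7 to 25.0 CPM with a median of 19.7. The libraries of *pup-1(0)*, the triple and the quadruple mutant all lay above the wild-type range, whereas 1 library of the double mutant lay within it. The log2 fold change was 1.10 (SE 0.23, adjusted p = 0.000716) in the triple mutant and 1.01 (SE 0.23, adjusted p = 0.00138) in the double mutant, both DA. It was 0.99 (SE 0.23, adjusted p = 0.00136) in the quadruple mutant and 0.73 (SE 0.23, adjusted p = 0.0177) in *pup-1(0)*, short of the fold threshold. The value of *pup-1(0)* was 0.61 without its own replicate 2 (adjusted p = 0.113), and 0.54 and 0.51 without wild-type replicates 1 and 4 (adjusted p = 0.0629 and 0.0875). Over 21 alternatives, its adjusted p was under 0.05 in 12, among them 6 of the 12 other settings. The count was 20 for the double mutant and 21 for the triple and quadruple mutants. The call in the double mutant rested on replicate 1, its library at 59.6 CPM: without it the log2 fold change was 0.54 (adjusted p = 0.0664). That call also ended without wild-type replicate 1 (0.92) or 4 (0.88), and the call in the triple mutant ended without wild-type replicate 4, at 1.00 to 2 decimals. In the quadruple mutant the value of *meg-1* passed the fold threshold without its own replicate 1 (1.07) and without wild-type replicates 3 (1.00) or 6 (1.06).

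Within a library, the ratio of *meg-2* to *meg-1* siRNAs per kb does not depend on how libraries are scaled. It was 0.523 to 0.999 in *pup-1(0)*, 0.593 to 1.36 in the double, 0.559 to 0.673 in the triple and 0.599 to 0.773 in the quadruple mutant, against 0.295 to 0.552 in wild type. The ranges of the double, triple and quadruple mutants lay above that of wild type, and that of *pup-1(0)* overlapped it. In the strains that keep *pup-1* it was 0.349 to 0.388 in *pup-2(0)*, 0.247 to 0.45 in *pup-3(0)* and 0.418 to 0.481 in *pup-4(0)*, each range overlapping that of wild type. Both ratios plotted were chosen with the levels known and are given without a test.

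**Figure D3:**
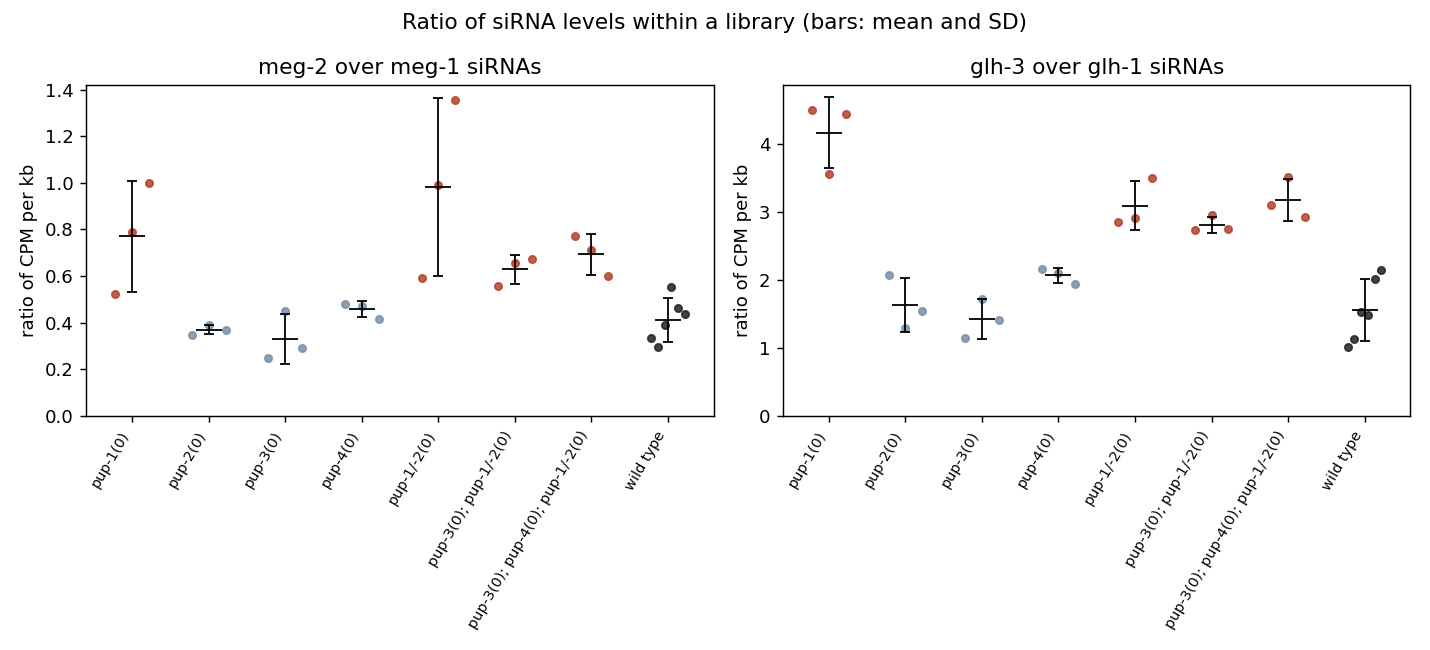
Ratio of siRNA levels per kilobase within each library, *meg-2* over *meg-1* on the left and *glh-3* over *glh-1* on the right, with the mean and SD for each genotype. The *glh-3* over *glh-1* ratio is 2.73 to 4.49 in the libraries lacking *pup-1* and 1.02 to 2.15 in wild type, without overlap.

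Most DA siRNAs were lower, on chromosome X as on the autosomes. Of the 818 tested on X, the *meg* genes included, 82 were DA higher and 235 DA lower in *pup-1(0)*, with a median log2 fold change of −0.55, and 132 were higher and 221 lower in the quadruple mutant, with a median of −0.21. Of the 6366 tested on autosomes, 582 were DA higher and 944 lower in *pup-1(0)* (median −0.18), and 599 higher and 938 lower in the quadruple mutant (median −0.11). Among the 4 further genes within 20 kb of *meg-2* or *meg-1* whose siRNAs were tested, *alg-1*, which encodes a miRNA Argonaute, was DA higher in *pup-1(0)* (log2 fold change 1.50, adjusted p = 3.07e-05), the double mutant (1.88, adjusted p = 2.01e-06) and the quadruple mutant (1.31, adjusted p = 0.000136). In the triple mutant it was 0.95 (adjusted p = 0.00468). The siRNAs of *ekl-5*, *Y26E6A.2* and *Y26E6A.3* averaged 1.59, 0.961 and 1.75 CPM in wild type. Of these, *Y26E6A.2* was DA lower in *pup-1(0)* than in wild type (−2.77, SE 0.98, adjusted p = 0.0292) and DA higher in the double mutant than in *pup-1(0)* (3.76, SE 1.01, adjusted p = 0.029), and no other comparison called any of the 3 DA. This neighbourhood was examined after the values of *meg-1* and *meg-2* had been seen.

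The GLH proteins are Vasa-like RNA helicases of P granules. *glh-3* (WBGene00001600, chromosome I, 5792321 to 5795114, minus strand) and *glh-1* (WBGene00001598, chromosome I, 6854478 to 6857536, plus strand) went in opposite directions in *pup-1(0)* and the double mutant. The *glh-3* siRNAs were at 218, 208 and 220 CPM in *pup-1(0)*, 192, 142 and 143 CPM in the double mutant, 173, 155 and 164 CPM in the triple mutant and 189, 201 and 198 CPM in the quadruple mutant, against 85.7 to 143 CPM (median 114) in wild type. All libraries of *pup-1(0)*, the triple and the quadruple mutant lay above wild type, and those of the double mutant overlapped it at its upper end. The log2 fold change was 0.88 (SE 0.13, adjusted p = 1.15e-05) in *pup-1(0)*, 0.45 (SE 0.13, adjusted p = 0.0114) in the double, 0.49 (SE 0.13, adjusted p = 0.00667) in the triple and 0.75 (SE 0.13, adjusted p = 8.57e-05) in the quadruple mutant. None reached the fold threshold, except that scaling by total counts alone gave 1.01 in the quadruple mutant. Without replicate 1 of the double mutant its value was 0.28 (adjusted p = 0.14), and scaled by total counts it was 0.36 (adjusted p = 0.279). Against wild-type replicates 4 to 6 alone, the double and triple mutants were at 0.35 and 0.40 (adjusted p = 0.0913 and 0.065). Without a filter they were at 0.39 and 0.42 (adjusted p = 0.0957 and 0.0763). Over 21 alternatives, the adjusted p was under 0.05 in 16 for the double, 19 for the triple and 21 for both *pup-1(0)* and the quadruple mutant.

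The *glh-1* siRNAs were at 51.5, 61.8 and 52.7 CPM in *pup-1(0)*, 71.4, 51.8 and 43.2 CPM in the double mutant, 67.0, 55.8 and 63.2 CPM in the triple mutant and 64.7, 60.6 and 72.0 CPM in the quadruple mutant. In wild type they ran from 61.3 to 119.9 CPM with a median of 76.6. Each of these ranges overlapped wild type. The log2 fold change was −0.58 (SE 0.18, adjusted p = 0.0136) in *pup-1(0)* and −0.58 (SE 0.18, adjusted p = 0.0134) in the double mutant. It was −0.42 (SE 0.18, adjusted p = 0.0759) in the triple mutant and −0.33 (SE 0.18, adjusted p = 0.146) in the quadruple mutant, past no threshold. Scaled by total counts alone, the value of *pup-1(0)* was −0.47 (adjusted p = 0.112). The 2 highest wild-type values, 119.9 and 100.7 CPM, belonged to replicates 1 and 2. Against wild-type replicates 1 to 3 alone, the value was −0.84 in *pup-1(0)*, −0.84 in the double, −0.68 in the triple and −0.60 in the quadruple mutant (adjusted p = 0.000835 to 0.0102). Against replicates 4 to 6 alone it was −0.43, −0.32, −0.16 and −0.14 in the same order, and of these that of *pup-1(0)* kept an adjusted p under 0.05 (0.0214). With the replicate block, the value of the quadruple mutant was −0.58 (adjusted p = 0.0106). Pairing it with wild type by replicate number was inferred from correlations between libraries and is not given by the labels. Wild-type replicates 4 to 6 share no number with a mutant library, so the block in effect repeats the comparison with replicates 1 to 3. Both are counted among the 21 alternatives for each gene, so these are not all separate checks. Over 21 alternatives, the adjusted p was under 0.05 in 17 for *pup-1(0)*, 18 for the double, 6 for the triple and 3 for the quadruple mutant. It was not without replicate 1 (0.0642) or 3 (0.0658) of *pup-1(0)*, or without replicate 3 of the double mutant (0.0747), for the mutant concerned.

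Set against each other per kb within a library, *glh-3* siRNAs exceeded those of *glh-1* by a ratio of 3.56 to 4.49 in *pup-1(0)*, 2.85 to 3.5 in the double, 2.73 to 2.95 in the triple and 2.92 to 3.52 in the quadruple mutant, against 1.02 to 2.15 in wild type. For the other single mutants the ratio was 1.3 to 2.07 in *pup-2(0)*, 1.14 to 1.73 in *pup-3(0)* and 1.94 to 2.16 in *pup-4(0)*. Every library lacking *pup-1* thus lay above every library that carries it. The methods do not say how reads shared between related *glh* genes were assigned, and *glh-2*, a close relative of *glh-1*, is not analysed here.

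For *glh-4* (WBGene00001601, chromosome I, 3727027 to 3731179, plus strand), a further helicase gene, siRNAs were at 304, 508 and 401 CPM in *pup-1(0)*, against 205 to 358 CPM (median 314) in wild type. The ranges overlapped, and the log2 fold change was 0.42 (SE 0.15, adjusted p = 0.0335). Without replicate 2 of *pup-1(0)*, the library at 508 CPM, it was 0.23 (adjusted p = 0.327). It also missed the test without replicate 3 of *pup-1(0)* (0.44) and without wild-type replicates 1, 2 or 4 (0.24 to 0.34), with adjusted p of 0.0719 to 0.136. Over 21 alternatives it had an adjusted p under 0.05 in 8, at 0.23 to 0.60. In the double, triple and quadruple mutants it was 0.13, 0.07 and 0.31, and none of these passed the test. The quadruple mutant passed it when scaled by total counts (0.60, adjusted p = 0.0217) and with 6 factors of unwanted variation (0.45, adjusted p = 0.00217).

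PGL-3 is a scaffold protein of P granules that assembles with PGL-1. The siRNAs of *pgl-3* (WBGene00003994, chromosome V, 4755979 to 4758587, plus strand) were at 98.6, 142.5 and 140.2 CPM in *pup-1(0)*, 114, 71.0 and 55.3 CPM in the double mutant, 77.8, 74.7 and 94.9 CPM in the triple mutant and 111.9, 147.7 and 111.8 CPM in the quadruple mutant. In wild type they ran from 85.2 to 154.4 CPM with a median of 126.1. Ranges overlapped with wild type in each of the 4 strains. The log2 fold change was −0.59 (SE 0.20, adjusted p = 0.0213) in the double mutant and −0.54 (SE 0.20, adjusted p = 0.0367) in the triple mutant, both short of the fold threshold. Without replicate 1, 2 or 3 of the double mutant, its value was −0.94, −0.51 or −0.38 (adjusted p = 0.000791, 0.0931 and 0.166). Over 21 alternatives the value had an adjusted p under 0.05 in 17 for the double mutant (−0.94 to −0.38) and in 12 for the triple mutant (−0.65 to −0.30). That of the triple mutant lost it without its own replicates 1 or 2 (0.131 and 0.166) and without wild-type replicates 3, 5 or 6 (0.0505 to 0.0609). In *pup-1(0)* it was 0.08 (SE 0.19, adjusted p = 0.77) and in the quadruple mutant 0.04 (SE 0.19, adjusted p = 0.9).

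DEPS-1 is a P granule component needed for normal accumulation of other P granule proteins. Its gene, *deps-1* (WBGene00022034), lies on the plus strand of chromosome I from 506473 to 509056. The *deps-1* siRNAs were at 218 to 279 CPM in *pup-1(0)*, 167 to 232 CPM in the double mutant, 158 to 220 CPM in the triple mutant and 211 to 249 CPM in the quadruple mutant, against 147 to 300.4 CPM in wild type. All these ranges lay within or overlapped that of wild type. The log2 fold changes of 0.21, −0.17, −0.19 and 0.11 in these strains did not pass the test, with adjusted p between 0.323 and 0.623 by edgeR. With 6 factors of unwanted variation in the fit, the quadruple mutant was at 0.25 (adjusted p = 0.0329).

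**Figure D4:**
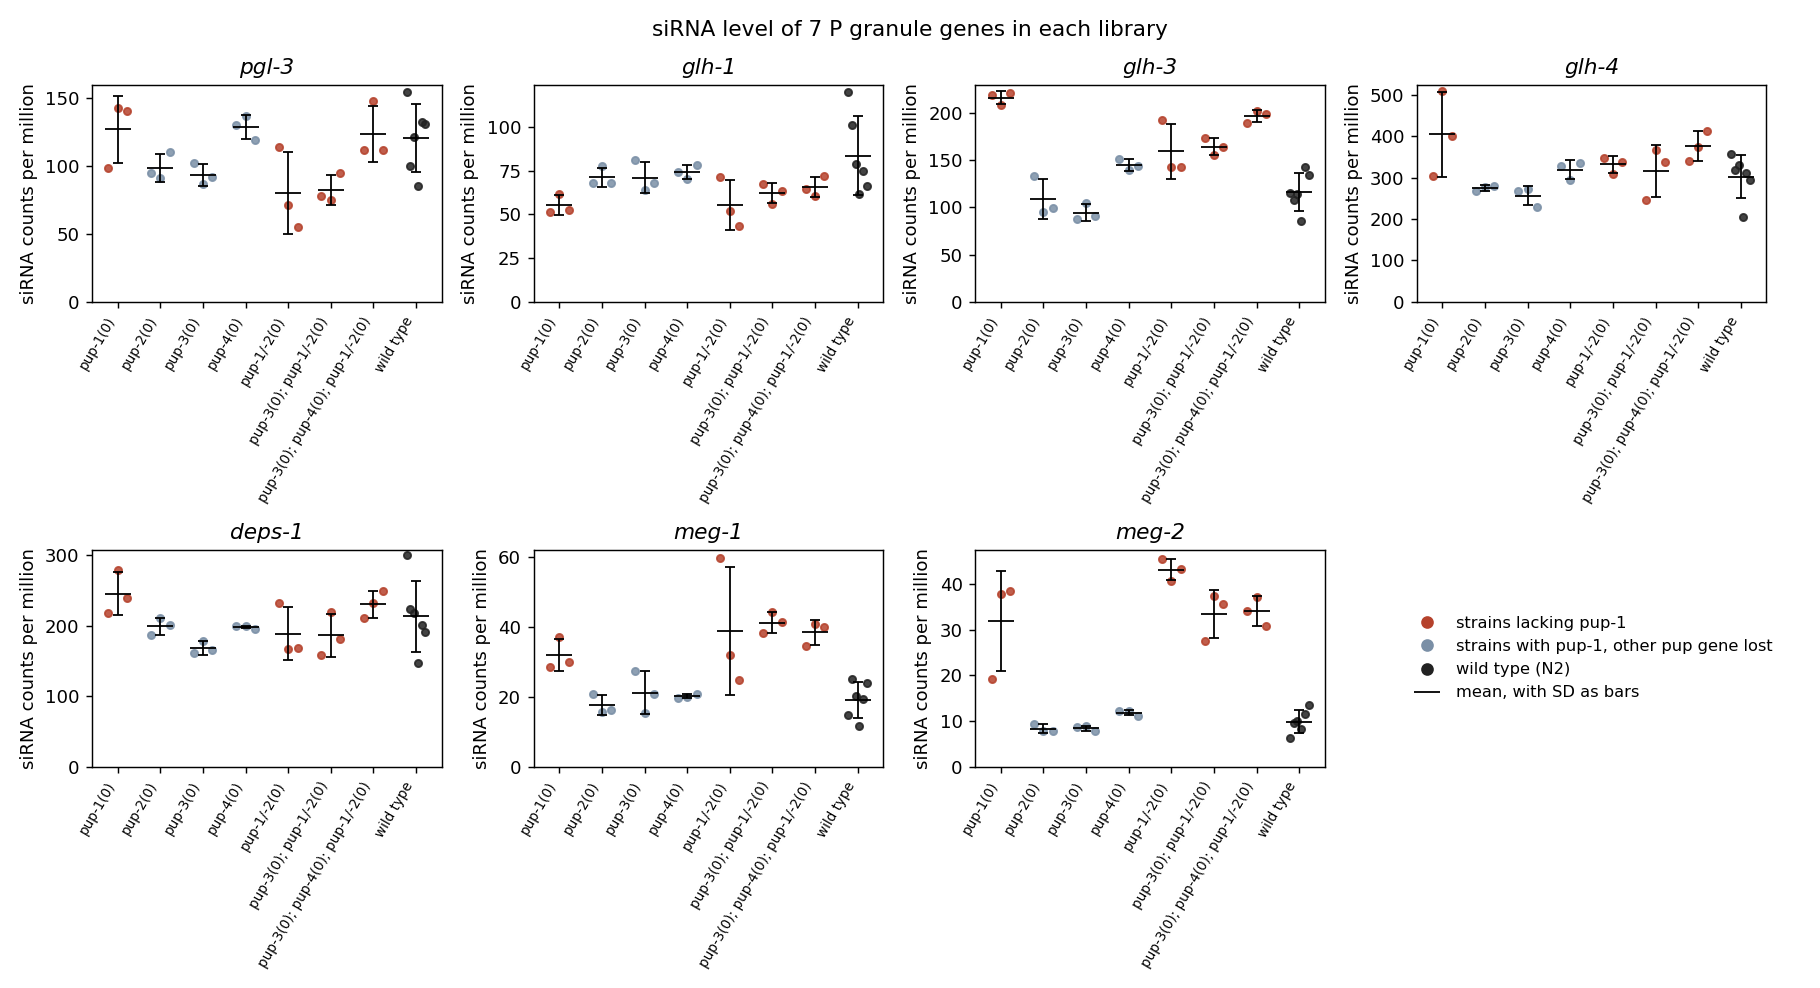
siRNA level of each of the 7 P granule genes in every library, in CPM on linear axes from 0, with points for libraries and bars for the mean and SD of each genotype. Libraries lacking *pup-1* hold 19.2 to 45.5 CPM of *meg-2* siRNAs and wild type holds 6.35 to 13.4, while the *deps-1* values of all genotypes overlap those of wild type.

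In the single mutants that keep *pup-1*, no P granule gene was DA. In *pup-2(0)* the 7 log2 fold changes lay between −0.30 and −0.10, with a median of −0.15 beside −0.04 over all sRNAs, of which 0.518% were DA. In *pup-3(0)* they lay between −0.37 and 0.07 with a median of −0.27, beside −0.06 over all sRNAs, of which 0.404% were DA. In *pup-4(0)* they lay between −0.16 and 0.31 with a median of 0.08, beside −0.04 over all sRNAs, of which 0.0518% were DA. At an unadjusted p under 0.05, 0, 2 and 1 of the 7 passed in these mutants, in the same order, by edgeR, against 8.48%, 11.2% and 7.13% of all sRNAs. DESeq2 also called 0 of the 7 DA in each, against 110 of 10355, 125 of 8402 and 49 of 6457 sRNAs. The *meg-2* siRNAs were at 7.74 to 9.40 CPM in *pup-2(0)*, 7.84 to 8.84 CPM in *pup-3(0)* and 11.1 to 12.2 CPM in *pup-4(0)*, all within the wild-type range.

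The steps between the strains that lack *pup-1* ask what the further losses add. From the double mutant over *pup-1(0)*, 0 of the 7 were DA, against 4.12% of all sRNAs, with log2 fold changes of −0.67 to 0.42. The lowest was that of *pgl-3* (SE 0.22, adjusted p = 0.0658). Without replicate 1 of the double mutant it was −1.03 (adjusted p = 0.00341) and past both thresholds, and *glh-3* was at −0.61 (adjusted p = 0.0159) and *deps-1* at −0.57 (adjusted p = 0.0424). More of all sRNAs were also DA in that fit, at 974 of 10395, against 397 of 9645 with all libraries. From the triple over the double mutant, 0 of the 7 were DA, against 0.487%, with values of −0.36 to 0.16, and from the quadruple over the triple mutant 0 of the 7, against 0.612%, with values of −0.11 to 0.58. The highest of these was again *pgl-3* (0.58, SE 0.22, adjusted p = 0.234), at 111.9, 147.7 and 111.8 CPM in the quadruple mutant and 77.8, 74.7 and 94.9 CPM in the triple mutant. At an unadjusted p under 0.05, 3, 0 and 1 of the 7 passed in these steps by edgeR, against 25.9%, 12.0% and 14.2% of all sRNAs. DESeq2 called 0 of 7 in each, against 670 of 10746, 175 of 8402 and 189 of 8013 sRNAs. Whether loss of *pup-4* acted differently in the triple mutant than in wild type, or loss of *pup-3* differently in the double mutant than in wild type, was tested as an interaction, and no P granule gene passed, the lowest adjusted p by edgeR being 0.825 and 0.553.

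The 7 genes together gave 0.135% to 0.164% of all siRNA counts in *pup-1(0)*, 0.127% to 0.154% in the double, 0.126% to 0.14% in the triple and 0.157% to 0.17% in the quadruple mutant, against 0.0854% to 0.14% in wild type. For the single mutants that keep *pup-1* the share was 0.11% to 0.127% in *pup-2(0)*, 0.0964% to 0.105% in *pup-3(0)* and 0.141% to 0.15% in *pup-4(0)*. The range of the quadruple mutant lay above wild type. That of *pup-4(0)* cleared it only at the last digit given (0.141% against 0.14%), and the other 5 overlapped it. The same share was not computed for other sets of genes.

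Further genes of germ granules and of P granule regulation were taken from a list of 31 symbols, of which 17 had siRNA counts and 16 passed the filter. Of these 16, 4 were DA in *pup-1(0)* (3 higher, 1 lower), 0 in the double mutant, 2 for the triple mutant (1 higher, 1 lower) and 2 in the quadruple mutant (1 higher, 1 lower), read against the same shares of all sRNAs. In the double mutant 11 of the 16 passed an unadjusted p under 0.05 by edgeR, against 43.8% of all sRNAs. The siRNAs of *meg-4*, another *meg* gene of the X chromosome, were lower, opposite in direction to those of *meg-1* and *meg-2*. Their log2 fold change was −1.65 (SE 0.31, adjusted p = 0.000194) in *pup-1(0)*, −1.20 (SE 0.31, adjusted p = 0.00384) in the triple mutant and −1.48 (SE 0.30, adjusted p = 0.000457) in the quadruple mutant, and in the double mutant it was −0.94 (SE 0.30, adjusted p = 0.0157). The siRNAs of *gls-1*, whose product binds a translational regulator of the germ line, were DA higher in *pup-1(0)* (1.13, adjusted p = 1.93e-07). Those of *gld-2*, a cytoplasmic poly(A) polymerase, were DA higher in *pup-1(0)* (1.30, adjusted p = 7.87e-07) and the quadruple mutant (1.18, adjusted p = 3.23e-06). Those of *pos-1*, an RNA-binding regulator of the early embryo, were DA higher in *pup-1(0)* (1.14, adjusted p = 0.000304) and the triple mutant (1.30, adjusted p = 8.49e-05). Short of the fold threshold, *gls-1* was at 0.59, 0.80 and 0.88 in the double, triple and quadruple mutants, and *gld-2* at 0.83 and 0.92 in the double and triple. Their adjusted p were 7.33e-06 to 0.00081 by edgeR. *pos-1* was at 0.98 in the quadruple mutant (adjusted p = 0.00125) and 0.42 in the double (adjusted p = 0.171). The further genes were not run under the other settings. The median log2 fold change of the 16 was 0.57 in *pup-1(0)*, 0.29 in the double, 0.44 in the triple and 0.41 in the quadruple mutant. In the single mutants that keep *pup-1* none of the 16 was DA, and 0, 1 and 2 of them passed an unadjusted p under 0.05 by edgeR (*pup-2(0)* first, *pup-4(0)* last), against 8.48%, 11.2% and 7.13% of all sRNAs.

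Across the 27 libraries, the siRNAs most like those of *meg-2* in log2 CPM were those of *tbcd-1* (Pearson's r = 0.971) and *ints-4* (0.968), out of 7183 others. The *glh-3* siRNAs were most like those of *pfkb-1.2* and *cdc-48.3* (both 0.966), and the *meg-1* siRNAs most like those of *rga-8* (0.926) and *mtm-5* (0.921), both on chromosome X. The 2 highest values were 0.907 (*B0273.1*) and 0.898 (*pid-5*) for *glh-4*, and 0.894 (*puf-8*) and 0.853 (*rbm-28*) for *deps-1*. They were 0.874 (*cpb-3*) and 0.869 (*pig-1*) for *pgl-3*, and 0.837 (*mob-1*) and 0.826 (*eelo-1*) for *glh-1*. These coefficients describe 27 libraries in 8 genotypes that share library scaling, and carry no p.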

How the data were processed

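The authors trimmed adapters with cutadapt, kept reads of 15 to 26 nt, mapped them with HISAT2 (versions not given in the sources used here) to the WS284 genome and counted them with smalldisco on the WS272 gene set. Antisense reads over the exons of each gene's coding sequence were added up as its siRNAs, so the counts use strand. The deposited values are raw counts without normalization, for 27 libraries. Symbols and positions came from the Ensembl 115 annotation of WBcel235, which matched 20147 of 20150 IDs. The P granule genes and the list of further germ granule genes were chosen with earlier results of these data known.

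The analysis used R 4.3.3 with edgeR 4.0.16 (which loads limma 3.58.1), and DESeq2 1.42.0 as an alternative, and values were plotted with matplotlib 3.10.9. sRNAs were kept by filterByExpr (minimum count 10, genotypes as groups), scaled by TMM, and fitted by edgeR's robust quasi-likelihood model with genotype as its only term over all libraries. DA needed a log2 fold change beyond 1 in either direction together with a p under 0.05 after Benjamini-Hochberg adjustment. The standard error was computed from the log2 fold change and its F statistic. CPM use TMM-scaled library sizes, and log2 CPM a prior count of 2. The steps were tested on simulated data. The authors name EDASeq and RUVSeq without functions, so factors of unwanted variation were an alternative, from an implementation written here. Named genes are the P granule genes, DA genes of the further list, and the 2 siRNAs most like each P granule gene by Pearson's r; others were chosen after their values were seen. Library totals ran from 972048 to 17562388 counts. Pairs of libraries of 1 genotype differed by at least 10.4 times sampling noise (chi-square per degree of freedom), so none was treated as a duplicate.

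Replicate numbers came from the labels, which name no batch. Deviations from the genotype mean correlated over 0.1 in every same-numbered pair only for the quadruple mutant and wild type (0.429, 0.162 and 0.191). There the replicate block left the count of DA P granule genes at 1, beside 2176 of all 9645 sRNAs tested. Other alternatives were DESeq2 size factors, total counts, other filters, siRNAs alone, DESeq2, subsets of wild type, a fit of the compared genotypes alone and leaving out each library.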

Additional observations from a re-analysis of the deposited data

How the results depend on the processing

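Over the alternatives to scaling, filter, test and libraries, DA calls of *meg-2* held in the 4 strains lacking *pup-1*, whereas those of *meg-1* lay near the fold threshold. In the quadruple mutant, 2 of the 7 genes were DA with DESeq2 size factors (*meg-1* 1.04), with 6 factors of unwanted variation (1.21), with a minimum count of 50 (1.03), with a minimum of 10 CPM (1.01) and with DESeq2 (1.03), and 3 were when libraries were scaled by total counts (*meg-1* 1.23, *glh-3* 1.01). Of all sRNAs tested, 2033 of 9645, 2192 of 9645, 1645 of 6439, 1539 of 6000, 2294 of 12309 and 2017 of 9645 were DA, in the same order. In the double mutant, 1 of the 7 was DA with total counts (*meg-1* 0.95), without a filter (0.92), with a minimum of 10 CPM (1.00), with the replicate block (0.90) and against wild-type replicates 1 to 3 alone (0.93). Of all sRNAs tested, 2034 of 9645, 2147 of 20150, 1371 of 6000, 1666 of 9645 and 1681 of 9581 were DA, in the same order. Outside the quadruple mutant, same-numbered libraries did not all correlate over 0.1, and the block changed no other count of DA genes. For comparisons with wild type, the block in effect repeats the use of wild-type replicates 1 to 3 alone, so these settings are not separate checks. Every library correlated best with its own number, 6 of 6, in *pup-2(0)* with wild type and in the double mutant with *pup-1(0)*, as a hint from the data and not the design. For the quadruple mutant with wild type, 4 of 6 libraries did so. Leaving out 1 library gave 1 to 2 DA genes in the double, triple and quadruple mutants each, and 0 to 1 from *pup-1(0)* to the double mutant. In these fits, 1437 to 2685 of 9610 to 10395 sRNAs tested were DA against wild type. Without replicate 1 of the double mutant, where the step from *pup-1(0)* had 1, 974 of 10395 sRNAs were DA in that step. Over all sRNAs the choice of wild-type replicates mattered more. Against replicates 1 to 3 alone, 203 were DA in *pup-4(0)* and 1681 in the double mutant. Against replicates 4 to 6 alone, 9 and 2723 were. Total counts moved the median log2 fold change of all sRNAs to −0.16 in *pup-1(0)*, −0.25 in *pup-3(0)*, 0.18 in *pup-4(0)*, 0.04 in the triple and 0.17 in the quadruple mutant, where 1218 were then DA higher and 799 lower. In the triple mutant 873 were then higher and 841 lower, against 553 and 1146 with TMM. The cause of these shifts was not tested.

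Values that changed sign were near 0 and past no test. For *pgl-3* they were −0.06 without a filter, −0.03 with a minimum of 10 CPM, −0.01 with siRNAs alone and −0.02 against wild-type replicates 4 to 6 in *pup-1(0)*, and −0.03 without a filter, −0.01 against wild-type replicates 1 to 3, −0.02 against replicates 4 to 6 and −0.01 with the compared genotypes alone in the quadruple mutant. For *deps-1* they were −0.01 (*pup-1(0)*) and −0.10 (quadruple mutant), each with the block and against wild-type replicates 1 to 3, 0.07 with total counts in the triple mutant, and 0.03 in the double and 0.02 in the triple mutant against wild-type replicates 4 to 6. For *glh-4* they were −0.01 with the block and −0.02 against wild-type replicates 1 to 3 in the double mutant, and −0.09 and −0.08 in the triple mutant. With 1 library left out, *pgl-3* in *pup-1(0)* ran from −0.09 to 0.25, *pgl-3* in the quadruple mutant from −0.10 to 0.12, and *glh-4* from −0.05 to 0.23 in the triple mutant. As CPM of siRNA counts alone, wild-type levels per kb were higher, from 5.92 for *meg-2* to 166 for *deps-1*. Depth limits *meg-2* most, with 9 counts in its lowest wild-type library.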
